A study of Homo sapiens with 12 samples.

Results

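The integrated stress response genes described here were ATF4, DDIT3, ATF3, ATF5, TRIB3, PPP1R15A, SESN2, DDIT4, ASNS and CHAC1. They were taken by gene name from the authors' 4 deposited tables of N6-methyladenosine (m6A) windows, and each of the 10 genes was listed in each table. They held 143 of the 296568 listed windows: 36 and 36 in the tables of guide sgMETTL16-1 (replicates 1 and 2), and 34 and 37 in those of guide sgMETTL16-2. The cells were NOMO-1, a human acute myeloid leukaemia line, infected with lentivirus for sgMETTL16-1 or sgMETTL16-2 (METTL16 knockout) or for the non-targeting guide sgNS (control). All cells, the controls included, carried a lentiviral guide and were grown in puromycin, and the labels do not say whether the cells were pools or clones. Polyadenylated RNA was sequenced directly (input) and after pulling down methylated fragments with an antibody to m6A (immunoprecipitation, IP), with 2 libraries of each kind per guide and 12 in all, to look at the m6A that METTL16 makes. The labels do not say whether the 2 replicates were separate cultures.

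Each row of a table is a window of a transcript, with the ratio of IP to input (fold enrichment) and a log2 fold change of m6A, read here as knockout over sgNS. The tables do not state that direction, which was taken from how software with such column names usually reports it, and the other reading would turn each "higher" below into "lower". A window is enriched when the authors' FDR of IP over input is under 0.05, and called when their FDR of the difference is under 0.05. A table covers 1 guide at 1 replicate number, so a value in it has no replicate error, and the reads per library are unknown. Which sgNS libraries entered a table was not given in the sources used here. Tables of 1 replicate number may share sgNS libraries, and a call made in both such tables is then not an independent repeat. The tables hold m6A windows and no expression levels, so the loss of METTL16 in the knockout cells was not checked here. Of the 7 myeloid genes looked up to check the cell type (CD33, CD14, ITGAM, SPI1, CEBPA, LYZ and MPO), each was listed in all 4 tables, while the T cell gene CD3E was listed in none.

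In the integrated stress response, kinases that sense amino acid shortage, unfolded protein, haem shortage or double-stranded RNA phosphorylate the initiation factor eIF2. Bulk translation then falls, while messenger RNAs with upstream reading frames such as ATF4 and ATF5 are translated better. ATF4 in turn switches on genes for amino acid supply, redox balance and, through DDIT3, cell death, and PPP1R15A brings the phosphatase that resets eIF2. METTL16 methylates the U6 small nuclear RNA and hairpins of the MAT2A messenger RNA, whereas most m6A on messenger RNA is written by METTL3 and METTL14.

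ATF4 and ATF5, named above for their upstream reading frames, each had an enriched window over a transcript start in at least 1 table. The first 30 transcribed bases are shown for each, from RefSeq on GRCh38.p14, 5′ to 3′. They are in lower case throughout, because GGAC, a common core of m6A sites that would have been put in capitals, is not among these letters. Other forms of the m6A site were not searched.
ATF4 (chr22:39520559-39520588, plus strand): agccatttctactttgcccgcccacagatg
ATF5 (chr19:49928906-49928935, plus strand): agaggcagaaagagaaagaaaccagagctt
A window covered the ATF4 bases in 3 tables and was enriched in 2 of them, those of replicate 2. An enriched window covered all the ATF5 bases in 1 table, that of replicate 2 of sgMETTL16-1. The enriched ATF4 windows have 210 bases and the ATF5 window 1407 bases in 4 blocks. Their enrichment therefore cannot be placed on the 30 bases shown. Windows that were not enriched covered such bases at a start of ATF3 in 4 tables, of CHAC1 in 3, and of SESN2 and ASNS in 1 each. No window covered them at the starts of DDIT3, PPP1R15A, DDIT4 or TRIB3. GGAC, read on the gene's strand, was in the first 50 transcribed bases of 2 of the 18 RefSeq starts of the 10 genes, and of 18.9% of 35116 starts of all genes.

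ATF4 can bind the composite element TGATGNAA together with a C/EBP protein. The element was searched on both strands from 250 bases before to 50 after each annotated start, and elements further away were not looked for. The stretches of 30 bases that hold it in 3 of the genes are shown with the element in capitals, 5′ to 3′, from RefSeq on GRCh38.p14.
ASNS (chr7:97872458-97872487, minus strand): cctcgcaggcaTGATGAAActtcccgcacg
CHAC1 (chr15:40953251-40953280, minus strand): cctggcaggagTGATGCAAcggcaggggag
ATF3 (chr1:212565205-212565234, plus strand): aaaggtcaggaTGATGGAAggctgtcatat
The element lay 61 to 68 bases before a start of ASNS, 202 to 209 before that of CHAC1 (on the strand opposite the gene) and 184 to 191 before a start of ATF3. It was in 3 of the 18 promoters of the 10 genes, and in 3.62% of all 35116 promoters of this length. A match is a description of letters and no test of binding, and the m6A windows measure RNA and not these promoters.

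Most of the genes carried enriched m6A windows, at modest fold enrichment. Of the member windows 11 of 36, 14 of 36, 13 of 34 and 12 of 37 were enriched, in the order sgMETTL16-1 replicates 1 and 2, then sgMETTL16-2 replicates 1 and 2, which is kept below, where 8.1%, 11.9%, 10.2% and 12.3% of all windows were. These lay on 7, 8, 9 and 8 of the 10 genes, where 30.4%, 35.9%, 34.5% and 35.8% of all listed genes had one. ATF4, DDIT3, ATF5, TRIB3, PPP1R15A, SESN2 and DDIT4 were enriched in all 4 tables. CHAC1, which breaks down glutathione, was enriched in 3 tables, ASNS, which makes asparagine, in 1 table, and ATF3, a stress-induced repressor, in none. Over the member windows that were enriched, the median fold enrichment was 1.68, 1.88, 1.75 and 2.09 in the authors' deposited tables. Over all enriched windows it was 1.78, 1.92, 1.88 and 1.89 in the authors' deposited tables.

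The window with the most significant enrichment stood for each gene. That of ATF4, at its 3′ end, had a fold enrichment of 1.58, 1.78, 1.75 and 1.73 in the authors' deposited tables. For DDIT4 the same quantity was 2.08, 2.22, 2.25 and 2.01 in the authors' deposited tables, with enrichment FDRs from 2.51e-45 down to 6.31e-66. CHAC1 was the exception in size and in scatter, with 6.68, 12.3, 14.4 and 3.97 in the authors' deposited tables. Its enrichment FDRs in the authors' deposited tables were 0.0575, 0.000112, 0.00724 and 0.0331, so that the highest ratios of the group came with far weaker support than those of DDIT4.

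**Figure D1:**
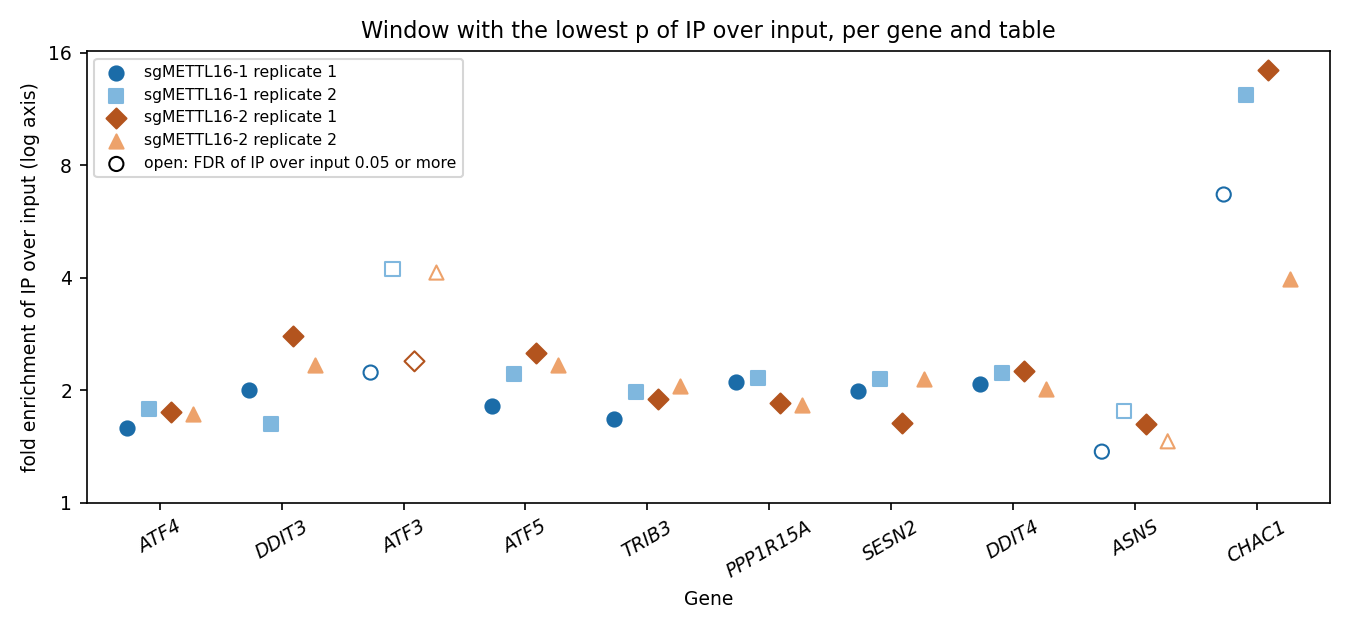
Fold enrichment of IP over input (log axis) of the window with the lowest p of IP over input for each gene, with 1 point per deposited table and open points where the FDR of IP over input was 0.05 or more. CHAC1 spans 3.97 to 14.4, ATF3 is open in all 4 tables, and ATF4 stays between 1.58 and 1.78.

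After METTL16 knockout, 5 of the 10 genes had a window called higher in at least 1 table, and none had a window called lower in any. The genes were ATF4, DDIT3, DDIT4, PPP1R15A and TRIB3, and the called log2 fold changes ran between 0.24 and 0.62. Of all genes, 5.80% had a window called higher in at least 1 table and 5.01% a window called lower. Of genes with an enriched window in at least 1 table, the shares were 12.9% and 10.0%. In the tables of sgMETTL16-1, 0 of 36 member windows were called higher in replicate 1 (0.0743% of all windows) and 3 of 36 in replicate 2 (0.583%). In those of sgMETTL16-2 the counts were 1 of 34 in replicate 1 (0.875%) and 2 of 37 in replicate 2 (0.586%). All 6 of these windows were enriched, and counted over enriched windows the numbers were 0 of 11 (0.809%), 3 of 14 (4.64%), 1 of 13 (7.38%) and 2 of 12 (4.54%). Counts of 0 to 3 are too small to set the members apart from these shares. Lower calls by the same FDR were 0 in each table, where 0.281%, 0.167%, 0.965% and 0.149% of all windows and 2.79%, 0.766%, 4.38% and 0.676% of enriched windows were called lower. At an unadjusted p under 0.05 in the authors' deposited tables, 5, 7, 5 and 6 member windows were higher, where 1.93%, 3.8%, 4.24% and 4.0% of all windows were, and 1, 2, 1 and 1 were lower, where 2.93%, 2.01%, 3.97% and 2.15% were. Among enriched windows, 3 of 11, 7 of 14, 4 of 13 and 5 of 12 member windows were higher at that p, where 7.35%, 22.2%, 24.3% and 21.9% of all enriched windows were. In the lower direction 0 enriched member windows passed in each table, where 16.4%, 4.5%, 11.6% and 4.71% of all enriched windows did. The excess of higher over lower windows at that p was thus also seen over all enriched windows in 3 of the 4 tables.

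No member call was repeated in the other table of the same guide. Of 18 member windows matched between the tables of sgMETTL16-1, 0 were called in both, and of 22 matched for sgMETTL16-2, 0 were. Over all matched windows, 0.02% were called higher and 0.0449% lower in both tables of sgMETTL16-1, and 0.529% and 0.0613% in both tables of sgMETTL16-2.

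The called changes are set here beside the median of all enriched windows, which was not the same in each table. What moved that median from 0 was not tested. Over all enriched windows the median log2 fold change was -0.04, 0.13, 0.13 and 0.14 in the authors' deposited tables, while over all windows it was 0. Over the enriched member windows the median was 0.03, 0.28, 0.18 and 0.17 in the authors' deposited tables. Relative to all enriched windows the members therefore stood 0.07, 0.14, 0.05 and 0.04 higher. Of the enriched member windows 6 of 11, 11 of 14, 11 of 13 and 8 of 12 lay above 0, where 44.0%, 67.2%, 63.3% and 67.4% of all enriched windows did. When each table was shifted by its own enriched median and tested two-sided, 0 of the 6 calls remained, with adjusted p between 0.295 and 1. With the two-sided p alone, all but TRIB3 remained (adjusted p of 0.0948 for TRIB3 and at most 0.0315 for the rest).

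**Figure D2:**
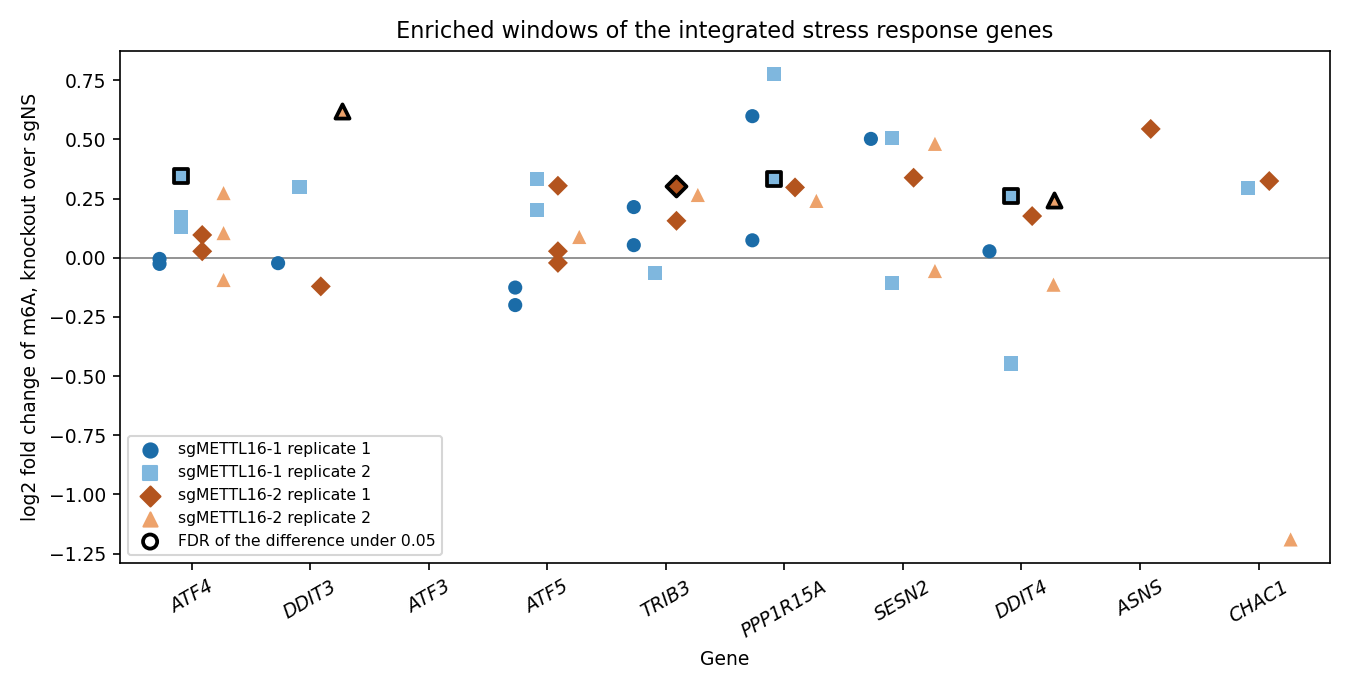
Log2 fold change of m6A (knockout over sgNS) of each enriched window of the 10 genes, with 1 colour and marker per deposited table and a black outline where the FDR of the difference was under 0.05. The 6 outlined windows lie between 0.24 and 0.62, 5 of them in tables of replicate 2 and none in replicate 1 of sgMETTL16-1.

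Among the transcription factors, ATF4, the central activator of the response, had 4 or 5 windows per table on a gene of 2128 bases (chromosome 22, 39520559 to 39522686, plus strand). The window that begins at 39521882 and ends at 39522150 or 39522090 was enriched in each table, with log2 fold changes of -0.005, 0.35, 0.03 and 0.27 in the authors' deposited tables. It was called in replicate 2 of sgMETTL16-1 (FDR = 0.00708) and not in replicate 2 of sgMETTL16-2 (FDR = 0.0676), by the authors' deposited tables. The replicate 2 values were the high ones with either guide, and both replicate 1 values lay near 0. The window at the 3′ end, which stops at the last annotated base of the gene, was at -0.03, 0.13, 0.10 and 0.10 in the authors' deposited tables and was called in none. At the 5′ end, the window from 39520559 to 39520768 was enriched in the tables of replicate 2 alone, at 0.17 for sgMETTL16-1 and at -0.09 for sgMETTL16-2 by the authors' deposited tables. In replicate 1 of sgMETTL16-2 the same window was at 0.45 in the authors' deposited table (FDR = 0.297) with a fold enrichment of 1.18, and it was not enriched there. The replicate 2 tables were the higher ones in the middle window and not in the 5′ window.

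DDIT3 (CHOP), the factor that couples lasting stress to apoptosis, had its enriched window at the 3′ end, within 30 bases of the last annotated base on chromosome 12 (57516588 to 57520517, minus strand). Its log2 fold changes were -0.02, 0.30, -0.12 and 0.62 in the authors' deposited tables, again high in replicate 2 and near or below 0 in replicate 1. The window of replicate 2 of sgMETTL16-2, from 57516618 to 57517121, was called (FDR = 0.00708 in the authors' deposited table), and that of sgMETTL16-1 was not (FDR = 0.472). The called window was also the largest called change of the 10 genes. After the shift it stood at 0.48 with an adjusted p of 0.295. MARS, the methionyl-tRNA synthetase gene on the other strand, had a window that shared 38 to 68 bases with it in each table, with log2 fold changes between 0.05 and 0.21 in the authors' deposited tables and no call. The library kit was stranded per the labels, but whether reads were counted by strand is not given in the sources used here.

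ATF5, which like ATF4 is controlled by upstream reading frames and acts in the mitochondrial stress response, had long enriched windows that ran across introns. In replicate 2 of sgMETTL16-2 a single window of 1946 bases in 4 blocks (chromosome 19, 49928911 to 49933816) spanned nearly the whole gene, at 0.09 in the authors' deposited table. Replicate 2 of sgMETTL16-1 had a window of 1407 bases at 0.20 (FDR = 0.590) in the authors' deposited table. The replicate 1 tables cut the same stretch into shorter windows, of which that from 49930897 (sgMETTL16-2) was at 0.30 (FDR = 0.300) and that from 49930927 (sgMETTL16-1) at -0.20 (FDR = 0.655) in the authors' deposited tables. No window of ATF5 was called, and its enriched windows ranged from -0.20 to 0.33. NUP62 and IL4I1 on the other strand and, in 1 table, MIR4751 had windows that shared 51 to 75 bases with those of ATF5. None of these was called, the nearest being IL4I1 at 0.87 (FDR = 0.0537) in replicate 1 of sgMETTL16-2 by the authors' deposited table. ATF3 had 4 windows in each table, none enriched, with fold enrichments between 1.27 and 4.23 and 0.655 as the lowest FDR of the difference in the authors' deposited tables. The lowest FDR of its enrichment was 0.285 by the authors' deposited tables, so none of its windows passed as enriched despite ratios above 1.

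**Figure D3:**
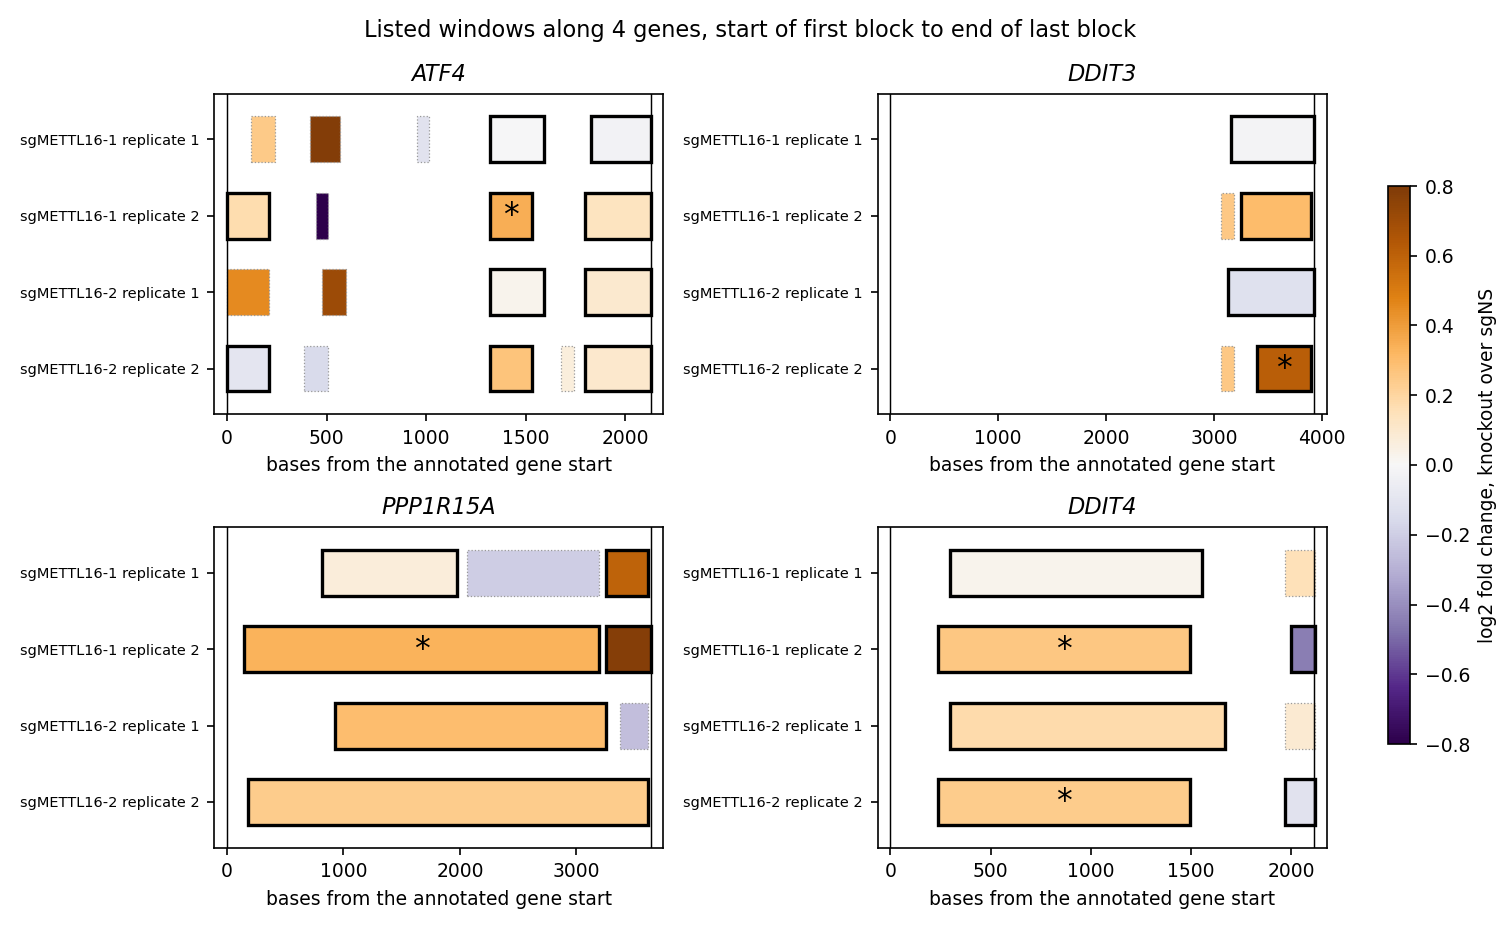
Windows of ATF4, DDIT3, PPP1R15A and DDIT4 in each deposited table, drawn from the start of the first block to the end of the last against bases from the annotated gene start. Fill gives the log2 fold change (knockout over sgNS; the scale ends at 0.8 either way), a solid outline marks enrichment and an asterisk a call. The 5 asterisks all lie in tables of replicate 2.

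TRIB3 and PPP1R15A are the feedback inhibitors of the group. TRIB3, a pseudokinase that binds ATF4 and DDIT3, had its strong window toward the 3′ end of the gene (chromosome 20, 380760 to 397559, plus strand). In replicate 1 of sgMETTL16-2 a window of 1079 bases in 2 blocks, 391354 to 397050, was called at 0.30 (FDR = 0.0355) in the authors' deposited table. The most significantly enriched windows of the other tables, which overlap it, were at 0.21 and -0.06 with sgMETTL16-1 and at 0.27 in replicate 2 of sgMETTL16-2 (FDR = 0.168) in the authors' deposited tables. The sgMETTL16-2 values were thus similar in both replicates, and the sgMETTL16-1 values lay on either side of 0.

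PPP1R15A (GADD34), which recruits the phosphatase that acts on eIF2, had all 6 of its enriched windows above 0. Its long window was at 0.07, 0.33, 0.30 and 0.24 in the authors' deposited tables, and each of these windows was enriched. It was called in replicate 2 of sgMETTL16-1 (FDR = 0.0102), where it ran from 48872571 to 48875615 on chromosome 19 in 3 blocks, and with sgMETTL16-2 its FDR was 0.0603 and 0.123 in the authors' deposited tables. A second window from 48875675, close to the 3′ end, was at 0.60 and 0.78 with sgMETTL16-1 (FDR = 0.655 and 0.191) in the authors' deposited tables. In replicate 1 of sgMETTL16-2 a window at the same place, 48875794 to 48876032, was at -0.25 (FDR = 0.659) and was not enriched, by the authors' deposited table, and in replicate 2 of that guide the long window took in this stretch. The long window did not have the same extent in the tables, with 1162, 1757, 1609 and 2145 bases.

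SESN2 and DDIT4 both restrain the growth kinase mTORC1. SESN2, a leucine sensor, had 1 window at nearly the same place in each table (chromosome 1, 28280787 to 28281206 or 28281236), which ended 1255 to 1285 bases before the end of the gene. It was at 0.50, 0.51, 0.34 and 0.48 in the authors' deposited tables and was enriched in each. No table called it, the FDRs being 0.605 to 0.655 in the authors' deposited tables. The mean of 0.46 was the highest among the member windows enriched in all 4 tables. The shift by the enriched medians leaves them at 0.54, 0.37, 0.21 and 0.35. The other enriched windows of SESN2, near its 3′ end in the replicate 2 tables, were at -0.11 and -0.06 in the authors' deposited tables.

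DDIT4 (REDD1), which is also induced by hypoxia and glucocorticoids, was the gene with the most calls. A window of 980 to 1099 bases in 2 blocks (chromosome 10, 72274163 to 72275416 in the replicate 2 tables) was at 0.03, 0.26, 0.18 and 0.24 in the authors' deposited tables. It was called in replicate 2 of both sgMETTL16-1 (FDR = 0.00603) and sgMETTL16-2 (FDR = 0.0118), and its FDR was 0.111 in replicate 1 of sgMETTL16-2 in the authors' deposited tables. The short window at the 3′ end went the other way in the same replicate 2 tables, at -0.45 and -0.11, and was at 0.16 and 0.09 in the replicate 1 tables of sgMETTL16-1 and sgMETTL16-2, by the authors' deposited tables, with no call. That short window was also enriched in replicate 2 alone, with a fold enrichment of 4.23 and 4.96 and with 1.98 and 1.90 in replicate 1, by the authors' deposited tables. The difference between the 2 windows of DDIT4 was not tested.

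Over the 10 genes, 10 windows on 8 of them could be matched across all 4 tables, and 6 of these were enriched in each. Of the 6, 3 were above 0 in every table: those of SESN2, DDIT4 (the long one) and PPP1R15A. Of all 2093 windows enriched in the 4 tables, 30.7% were above 0 in every table.

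The enzymes of the group gave less to compare. ASNS had 3 or 4 windows per table, of which 1 was enriched, in replicate 1 of sgMETTL16-2 near the 3′ end (chromosome 7, 97852117 to 97852296), at 0.54 (FDR = 0.596) in the authors' deposited table. A window further upstream, from 97858908 or 97858938 to 97859314, was at -1.97 (FDR = 0.0676) and -1.38 (FDR = 0.202) in the replicate 2 tables of sgMETTL16-1 and sgMETTL16-2, and at 0.84 (97858878 to 97859254, FDR = 0.646) in replicate 1 of sgMETTL16-1, by the authors' deposited tables. It was not enriched in any of them. CHAC1 had its highest enrichment toward the 3′ end on chromosome 15, at 0.29 (40955718 to 40956282) and 0.32 (40955599 to 40956193) where the ratio was highest and at -2.42 and -1.19 in the other 2 tables, by the authors' deposited tables. The highest and lowest of these differed by more than those of any other gene's window with the lowest p of IP over input. ATF3, with no enriched window, came close at 0.32 and -2.39 by the authors' deposited tables. The CHAC1 window at -2.42 was not enriched either, and CHAC1 had no call.

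Other genes of the pathway were called in both directions. Of 83 further genes listed in any table, from sensors to targets, 2, 6, 10 and 7 had a window called higher and 3, 2, 9 and 1 a window called lower, in the order of tables used above. The shares of all genes were 0.368%, 2.51%, 3.66% and 2.52% for higher calls and 1.39%, 0.76%, 4.17% and 0.682% for lower calls. Of all matched windows, 0.529% were called higher in both tables of sgMETTL16-2 and 0.02% in both tables of sgMETTL16-1. Genes of this list called in both tables of a guide were JUN, SLC1A5, SLC7A1 and VEGFA, all higher and all with sgMETTL16-2. VEGFA, the angiogenic growth factor, had 2 such windows, at 0.33 and 0.32 and at 0.37 and 0.43 in the authors' deposited tables. JUN, a partner of the ATF factors, was at 0.58 and 0.73, the glutamine transporter SLC1A5 at 0.43 and 0.30 and the cationic amino acid transporter SLC7A1 at 0.57 and 0.65 in the authors' deposited tables. Once shifted, SLC1A5 kept its call in replicate 1 (adjusted p of 5.01e-05), VEGFA kept 3 of its 4, and JUN and SLC7A1 kept none. In replicate 2 of sgMETTL16-1 all 4 genes were called higher too.

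By group, amino acid transporters were called higher in 0, 2, 3 and 2 of 7 listed genes and lower in none, with SLC7A5 at 0.50 in replicate 1 of sgMETTL16-2 in the authors' deposited table. Partner transcription factors were called higher in 0, 1, 3 and 1 of 8 genes and lower in none, and in replicate 1 of sgMETTL16-2 CEBPB was at 0.50 and JDP2 at 0.29 in the authors' deposited table. Cytosolic tRNA synthetases, of which 13 were listed, had 0, 0, 0 and 1 gene called higher and 1, 1, 2 and 1 lower. Examples of lower calls are IARS (-0.91) and NARS (-0.45) in replicate 1 of sgMETTL16-2 and EPRS (-0.66) in replicate 1 of sgMETTL16-1, by the authors' deposited tables. Sensor kinases and eIF2 factors, 15 listed, gave 2, 1, 0 and 1 higher and 0, 0, 3 and 0 lower. EIF2S2, the beta subunit of eIF2, was called at 2.01 (34090600 to 34096745) in replicate 1 of sgMETTL16-1, by the authors' deposited table. A different window of it, which does not overlap that one (34089425 to 34089574), was called at -1.21 in replicate 1 of sgMETTL16-2. EIF2S3, the gamma subunit, was at 1.19 in replicate 1 of sgMETTL16-1 and EIF2B4, of the exchange factor, at 0.80 in replicate 2 of sgMETTL16-2, by the authors' deposited tables.

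Among serine and one-carbon enzymes, 10 listed, MTHFD2 was called lower at -2.0 in replicate 1 of sgMETTL16-2 in the authors' deposited table. In replicate 1 of sgMETTL16-1 a window from the same base was called at -1.5 and was not enriched, by the authors' deposited table. This group had 0, 0, 1 and 0 genes higher and 1, 1, 1 and 0 lower. Of the 5 phosphatase regulators 1 was called, PPP1CB, at -0.75 in replicate 1 of sgMETTL16-2 in the authors' deposited table. Secreted and other targets, 16 listed, had 0, 1, 3 and 1 genes higher and 0, 0, 1 and 0 lower. They include EIF4EBP1 (0.24), the mitochondrial protease LONP1 (0.30) and the mitochondrial chaperone HSPA9 (-0.30), all 3 in replicate 1 of sgMETTL16-2, by the authors' deposited table. Of 9 genes of the other arms of the endoplasmic reticulum stress response, 0, 1, 0 and 1 were higher and 1, 0, 1 and 0 lower. HSPA5 (BiP) was at 1.36 in replicate 2 of sgMETTL16-2, and HSP90B1 was called at -0.31 in replicate 1 and at 0.31 in replicate 2 of sgMETTL16-1, by the authors' deposited tables.

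The member window with the highest mean fold enrichment of those matched in all 4 tables was the short 3′ window of DDIT4, with a mean fold enrichment of 3.27. It was enriched in the replicate 2 tables alone and called in none. Each gene outside the members and the further pathway genes was compared by its window of highest mean fold enrichment, enriched or not. Those closest to the short DDIT4 window over the 4 log2 fold changes were ALG1, CDC27 and PHB. Their Euclidean distances were 0.0863, 0.104 and 0.120, out of 5163 genes compared over the 4 tables.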

How the data were processed

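The submitters' processing notes name STAR, with no version, and the build GRCh38. Peak caller, annotation and the pairing with sgNS libraries were not given in the sources used here. Per the file headers, the authors deposited for each window a log2 fold change, the log10 of its FDR, p-values of IP over input, and the ratio (fold enrichment) of IP over input. The log10 p-values and FDRs that reach below the usual range were handled as scores, as deposited.

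Counts of reads were not used, so depth and its precision are unknown. The second number in a table's name was taken to be the replicate. Coordinates are given from 1. A call was the authors' FDR under 0.05. Windows of 2 tables were matched 1 to 1 on gene name and strand when at least 0.5 of the bases of each were shared. In strongly enriched windows the highest deposited p of the difference was 0.514 to 0.537 by table, the range of a one-sided p. The two-sided alternative doubled it and adjusted it again over all windows by Benjamini-Hochberg. The shift by the enriched median took standard errors from the deposited p by a normal approximation.

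Gene ends and promoters came from RefSeq (GRCh38.p14), where all 10 genes matched by symbol. Members, lists and rules were chosen with earlier results of these data known. All members were named. Of the further pathway genes, those called in both tables of a guide and up to 3 more per group, by the largest change among called enriched windows, were named. AARS, ALDH18A1, EIF2A, EIF2AK2, EIF2B5, LARS, SHMT2 and YARS were also called and are counted only. Likeness was the distance over the 4 log2 fold changes between the windows of highest mean fold enrichment of genes, enriched or not. Some other lineage genes that were looked up are not reported here. Nothing was tested over gene lists. Of the steps, only window matching and the recomputed p-values were tried on simulated windows. The p-values were simulated with the normal errors that the shift calculation assumes. Python 3.11.15, pandas 2.3.3, numpy 2.4.6 and scipy 1.17.1 were used.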

Additional observations from a re-analysis of the deposited data

How the results depend on the processing

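No paired analysis was possible because the tables give 1 comparison each and no values per library. Called member windows remained 0 lower in all 4 tables under each alternative. Higher calls in the tables of sgMETTL16-1 replicate 2, sgMETTL16-2 replicate 1 and sgMETTL16-2 replicate 2 (3, 1 and 2) were 2, 0 and 1 at an FDR of 0.01, 0 in each when the change also had to be 1 or more on the log2 scale, either way, and 3, 0 and 2 with a two-sided p. After the shift by the enriched median, added after seeing the data, they were 0 in each. Members with a called window, 5 in all, were then 3, 0, 4 and 0. Further pathway genes with a called window (5, 8, 19 and 8) numbered 3 and 12 in the replicate 1 tables at an FDR of 0.01, 3, 2, 3 and 1 with a change of at least 1, and 4 and 3 in the replicate 2 tables after the shift. For the calls repeated within a guide, 0 for each, a single table gave 0 to 3 calls for sgMETTL16-1 and 1 to 2 for sgMETTL16-2. An overlap of 0.8 left them at 0. Enriched member windows fell to 3, 6 and 4 in the first 3 tables when the ratio to input had to be 2 or more. The median of enriched member windows with the other table of the guide ranged from 0.0273 to 0.278 for sgMETTL16-1 and was 0.17 and 0.18 for sgMETTL16-2. Centring on all enriched windows gave 0.051 and 0.037 for sgMETTL16-2, and 1 window per member 0.30 and 0.10. The cause was not tested. Reads per library are unknown, so what depth limits cannot be said.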
